A study of Mus musculus with 20 samples.

Results

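The endosomal sorting genes comprised the mouse genes whose symbols were those of a sorting nexin (Snx), a vacuolar protein sorting gene (Vps), a charged multivesicular body protein (Chmp), Tsg101, Hgs, Stam or Stam2. They were selected on their symbols, with earlier results of the same maternal comparison known, and numbered 75 of the 34937 genes in the count tables. RNA had been sequenced from single mouse embryos of mixed background, collected on embryonic day 2.5 at the 8-cell stage (8C) after natural matings, with the zona pellucida removed. The 9 Ehmt2Cntr embryos came from Ehmt2F/+ Zp3-Cre+ve mothers and the 10 Ehmt2Mat embryos from Ehmt2F/- Zp3-Cre+ve mothers, so that mothers of both groups carried a floxed allele and the Cre transgene, which is driven by the oocyte-specific Zp3 promoter. Of the Ehmt2Cntr embryos, 6 were +/+ and 3 were +/- for Ehmt2 themselves, and of the Ehmt2Mat embryos 5 were +/- and 5 were -/-. A -/- embryo was found only with Ehmt2Mat mothers and a +/+ embryo only with Ehmt2Cntr mothers, so maternal and zygotic genotype cannot be fully told apart in the maternal comparison. The labels name no mother or litter, and p-values therefore measure the spread between these embryos.

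Ehmt2 encodes G9a, the methyltransferase that places dimethylation on histone H3 lysine 9. Its transcript was lower in Ehmt2Mat embryos without passing the test, at 66.6 to 253 CPM (CPM, reads scaled to a common library size with TMM factors; median 133) in the controls and 58.7 to 159 CPM (median 94.9) in the latter, and the fit gave a log2 fold change of -0.47 (SE 0.24, edgeR adjusted p = 0.233). Counts over the whole gene do not separate the floxed exons, so this level is a weak check of the genotype. Between 8231646 and 30602434 reads per embryo were counted on genes, at which 3 counts are worth 0.098 to 0.364 CPM, and 12068 to 16142 genes were detected in controls (median 12848) and 12754 to 16412 in Ehmt2Mat embryos (median 14487.5).

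Endosomes receive membrane proteins taken up from the cell surface and sort them either to lysosomes or back to the surface and the Golgi. The ESCRT complexes gather ubiquitinated cargo and bud it into the endosome as vesicles, and the VPS4 ATPases take the ESCRT-III polymer apart. Retromer and the sorting nexins, which bind phosphoinositides through a PX domain, retrieve cargo in tubules, while the HOPS and CORVET complexes tether endosomes and lysosomes before fusion. Endocytosis and lysosomal breakdown of membrane proteins inherited from the oocyte are known to take place in cleavage-stage mouse embryos.

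Transcripts of most of these genes were present in 8C embryos. Of the 75 genes, 69 passed edgeR's filter on low counts in the maternal comparison, and 59 of those had reads in each of the 19 embryos. The 6 below the filter were Snx7, Snx20, Snx24, Snx25, Snx31 and Snx32, of which Snx31 had no reads in any embryo. Levels were compared between genes per kilobase of exon, a scale that the 3' bias of the amplified cDNA makes approximate. Snx3, a PX-only nexin that recruits retromer to endosomes, stood highest with a control median of 790 CPM per kb. It was followed by the SNX-BAR proteins Snx6 with 180 and Snx5 with 173 CPM per kb, by Snx16 with 109 and by the retromer subunit Vps35 with 81.3 CPM per kb. Snx6 and Snx5 were not separated from each other by their ranges in the plot of levels, and Snx3 lay above all others in every control embryo. On the CPM scale the same 5 genes were the most abundant.

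**Figure D1:**
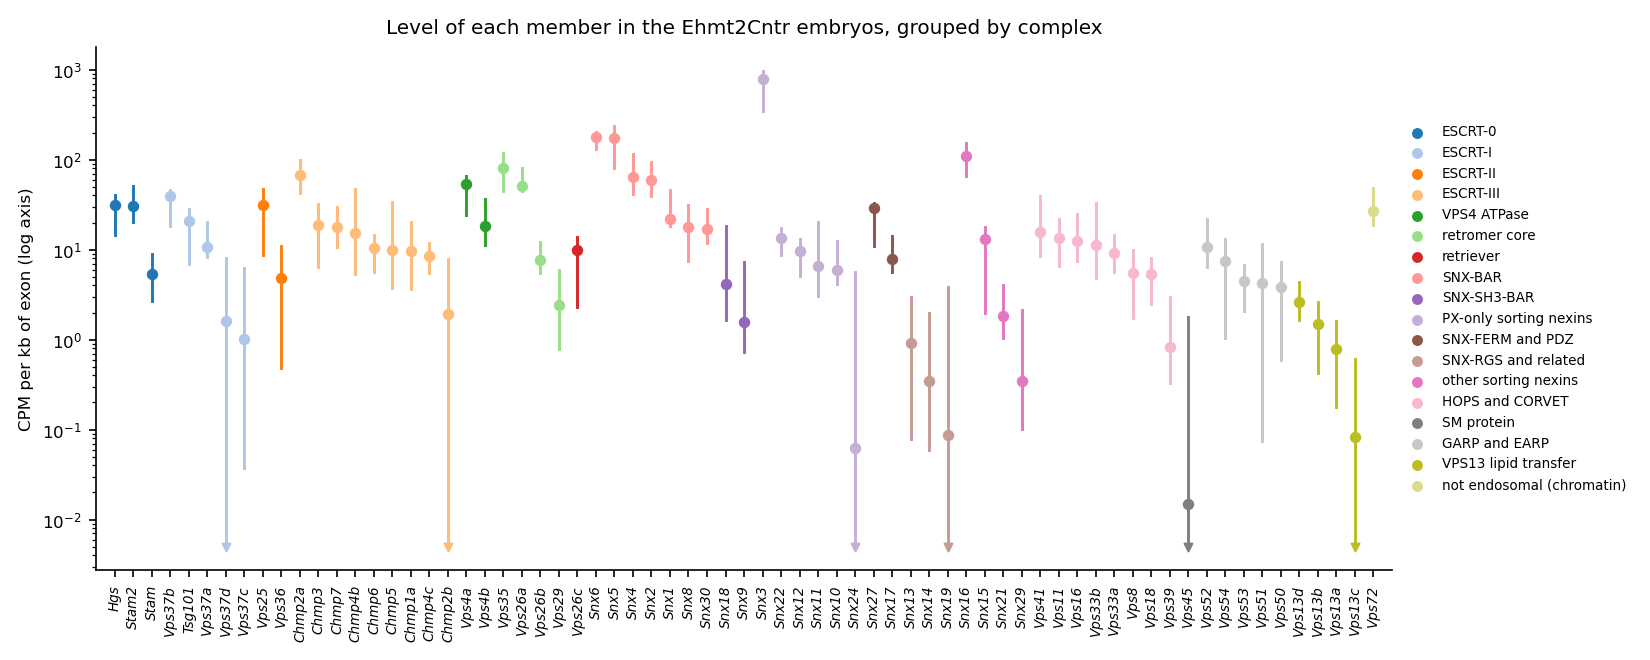
Level of 69 members in the 9 Ehmt2Cntr embryos, in CPM per kilobase of exon on a log axis, coloured by complex; points are medians, lines run from the lowest to the highest embryo and arrows mark 6 members with a control embryo at 0. Snx3 stands above all other members at 790 CPM per kb, and the 6 members with a control median of 0 are not drawn.

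The coefficient of variation between embryos had a median of 39.0% over the 69 tested members in controls and 39.7% in Ehmt2Mat embryos, beside 58.6% and 50.9% over all tested genes; low counts raise this measure. Snx6 was the steadiest, with 251 to 395 CPM (median 347) in controls and 292 to 377 CPM (median 342) in Ehmt2Mat embryos. Its groups overlapped almost fully and its log2 fold change was -0.04 (SE 0.13, adjusted p = 0.89).

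In the comparison of Ehmt2Mat with Ehmt2Cntr embryos, 13 of the 69 tested members passed an adjusted p of 0.05 in edgeR's quasi-likelihood test, 4 of them higher (Snx1, Snx8, Vps18 and Chmp1a) and 9 lower (Snx3, Snx4, Snx15, Vps33b, Vps37a, Chmp4b, Vps13d, Vps4a and Vps54). Over all 11754 genes tested the share called was 9.35%, with 4.37% higher and 4.98% lower. Since the genes were proposed with this comparison known, the counts describe them and support nothing further. The log2 fold change was below 0 for 48 members and above 0 for 21, with a median of -0.23 beside -0.04 over all tested genes, of which 52.4% were below 0. In none of the 69 members were the ranges of the groups separate, beside 0.519% of all tested genes. The plot of the called members shows each embryo.

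Fewer members were called without 5 embryos that were high in an oviduct transcript. Ovgp1, the oviductal glycoprotein and a secretory product of the oviduct lining, was above 300 CPM in control 10 and in Ehmt2Mat embryos 1 to 4, where it ranged from 365 to 2799 CPM, and at most 129 CPM in the other 14. The 5 oviduct markers summed to 0.0904 to 388 CPM (median 2.56) in controls and 9.68 to 2870 CPM (median 104) in Ehmt2Mat embryos. Almost all of this sum was Ovgp1 itself, with a median of 103 CPM in Ehmt2Mat embryos. The medians of the others there were 1.58 CPM for Pax8, 0.567 for Foxj1, 0.313 for Muc1 and 0.0706 for Wt1. The summed level of 6 blood markers reached 39.7 CPM (median 0.231) in controls and 191 CPM (median 6.63) in Ehmt2Mat embryos. No marker of either list was at 0 throughout. Of 9 cumulus and granulosa cell markers, Amh, Foxl2, Fshr, Has2 and Ptx3 were at 0 in every embryo, and the list summed to 22.5 to 110 CPM in controls and 43.9 to 164 CPM in Ehmt2Mat embryos, almost all of it Amhr2 (medians 46.8 and 71.5 CPM). Fewer cells of a type and less RNA per cell cannot be told apart here. Without the 5 embryos, which left 8 controls and 6 Ehmt2Mat embryos, 3 members passed the test (Snx3, Snx1 and Snx15) and 465 genes in all. Fewer embryos also give the test less power, and leaving out 5 other embryos was not tested. With the log2 level of Ovgp1 as a covariate no member and 8 of 11754 genes passed. An unadjusted p under 0.05 was found for 14 of 69 members, and the share of all genes at that level was not computed. Ovgp1 was at 9.60 to 2799 CPM in Ehmt2Mat embryos and at most 29.7 CPM in controls other than control 10. The fit with the covariate therefore cannot fully separate the level of Ovgp1 from the maternal genotype. All 13 members kept their sign in both fits, which were chosen after seeing the data, and the part of other cells in the 13 calls was otherwise not tested. With the covariate the log2 fold change moved from -1.49 to -0.45 (SE 0.40) for Chmp4b, from -1.74 to -1.08 (SE 0.51) for Vps33b, from 1.43 to 0.95 (SE 0.45) for Vps18, from -0.85 to -0.39 (SE 0.25) for Vps37a and from -0.61 to -0.27 (SE 0.25) for Vps4a. It grew in size for Snx15, from -2.43 to -2.965 (SE 0.65), and for Snx4, from -0.77 to -0.82 (SE 0.28). For the remaining called members it became smaller in size. The 3 embryos with the most genes detected, Ehmt2Mat 2, control 10 and Ehmt2Mat 4, were among these 5.

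Matching the zygotic genotype left 3 controls and 5 Ehmt2Mat embryos, all +/-. Control 10 and Ehmt2Mat embryos 2 and 3, all high in Ovgp1, were among them, and their part in these values was not tested. In this fit 0 of 71 tested members passed the edgeR test, beside 1 of 13401 genes. An unadjusted p under 0.05 was found for 7 members, and the share of all genes at that level was not computed. All 13 called members kept their sign. Snx3, Snx1, Snx15 and Vps18 had log2 fold changes of -1.18 (SE 0.37), 1.12 (SE 0.35), -2.58 (SE 0.68) and 1.61 (SE 0.62). Among the values smaller than in all embryos were those of Vps33b at -0.61 (SE 0.65), Vps54 at -0.34 (SE 0.71), Chmp1a at 0.31 (SE 0.52), Snx8 at 0.37 (SE 0.41) and Snx4 at -0.40 (SE 0.30).

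**Figure D2:**
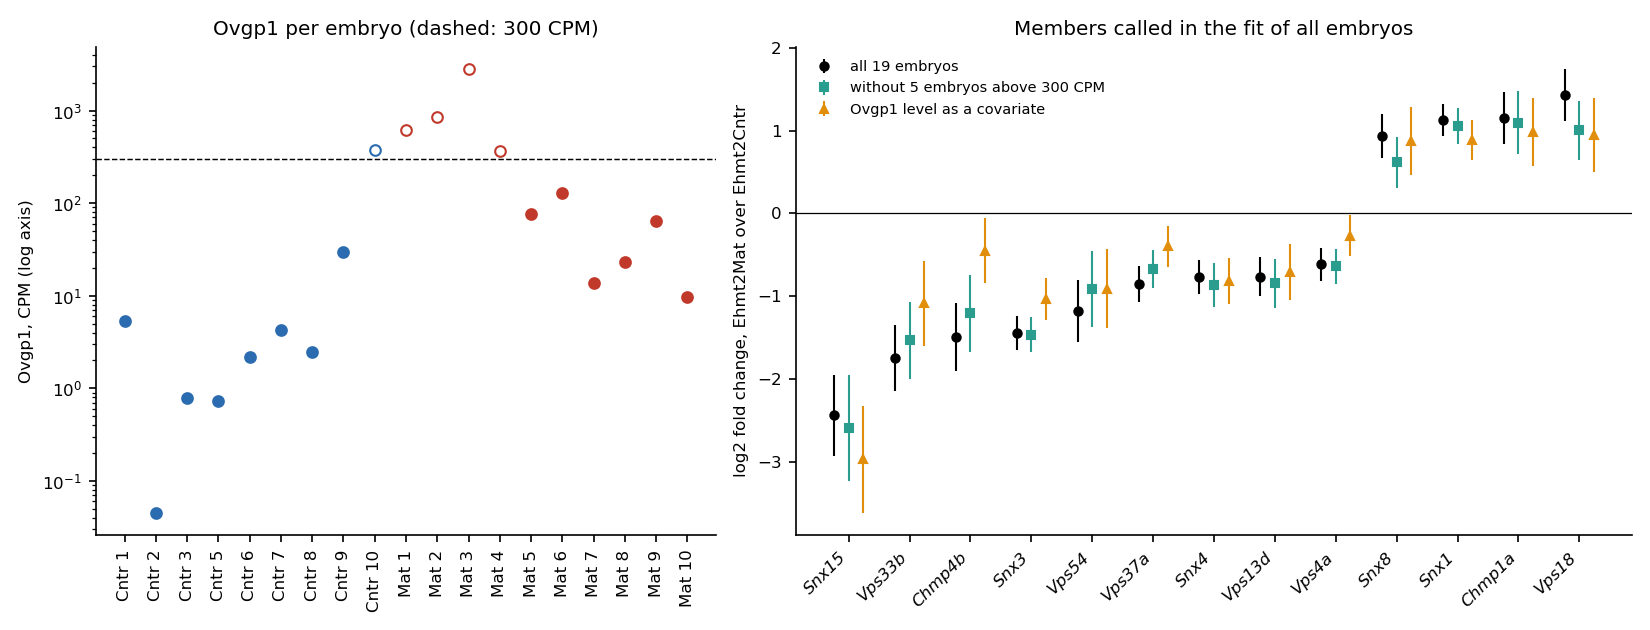
Left, CPM of Ovgp1 in each embryo on a log axis, with open symbols for the 5 embryos above the dashed line at 300 CPM. Right, log2 fold change of the 13 called members (bars, SE) in all 19 embryos, without those 5 embryos, and with the Ovgp1 level as a covariate; every sign is kept, and Chmp4b moves most, from -1.49 to -0.45 with the covariate.

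Snx3 had the smallest adjusted p of these genes (ENSMUSG00000019804, GRCm38 chr10:42502030-42535381, plus strand). It was at 496 to 1373 CPM (median 1116) in controls and at 195 to 615 CPM (median 397) in Ehmt2Mat embryos. Of the 9 controls, 8 lay above every Ehmt2Mat embryo, and control 10, which was also high in Ovgp1, lay among them. Snx3 was 2.72-fold lower, with a log2 fold change of -1.44 (SE 0.20, adjusted p = 0.000266), and -1.46 (SE 0.21, adjusted p = 0.00156) without the 5 embryos high in Ovgp1. With the Ovgp1 level as a covariate in edgeR, Snx3 was at -1.03 (SE 0.26, adjusted p = 0.0977). Its paralog Snx12 was at 15.1 to 38.6 CPM (median 28.2) in controls and 5.21 to 54.5 CPM (median 19.1) in Ehmt2Mat embryos, with a log2 fold change of -0.39 (SE 0.38, adjusted p = 0.592).

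The starts of 4 members are shown to give the sequence around genes called in either direction. They are the 2 lower and the 2 higher members with the smallest adjusted p that have an entry among the RefSeq promoters (GRCm38.p6), 5' to 3' on the strand of the gene, from 250 bases before to 50 after the start. Capitals mark matches to 4 motifs on either strand, the E-box CACGTG, the CCAAT box CCAAT, the GC box GGGCGG and the TATA box TATAAA. Snx3 lies at chr10:42501804-42502103 (plus strand), Snx4 at chr16:33251206-33251505 (plus), Snx1 at chr9:66124837-66125136 (minus) and Vps18 at chr2:119288492-119288791 (plus).
Snx3: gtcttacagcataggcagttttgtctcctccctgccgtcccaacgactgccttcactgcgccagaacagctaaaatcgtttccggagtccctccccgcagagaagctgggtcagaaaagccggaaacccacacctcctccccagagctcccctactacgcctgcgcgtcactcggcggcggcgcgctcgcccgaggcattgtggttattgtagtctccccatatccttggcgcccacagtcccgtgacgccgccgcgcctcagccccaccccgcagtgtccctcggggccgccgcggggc
Snx4: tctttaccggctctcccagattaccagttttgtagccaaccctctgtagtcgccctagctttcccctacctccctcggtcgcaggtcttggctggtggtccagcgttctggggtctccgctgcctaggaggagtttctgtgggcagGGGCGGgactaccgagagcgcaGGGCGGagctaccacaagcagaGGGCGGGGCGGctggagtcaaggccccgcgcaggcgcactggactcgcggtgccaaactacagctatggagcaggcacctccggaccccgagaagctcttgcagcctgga
Snx1: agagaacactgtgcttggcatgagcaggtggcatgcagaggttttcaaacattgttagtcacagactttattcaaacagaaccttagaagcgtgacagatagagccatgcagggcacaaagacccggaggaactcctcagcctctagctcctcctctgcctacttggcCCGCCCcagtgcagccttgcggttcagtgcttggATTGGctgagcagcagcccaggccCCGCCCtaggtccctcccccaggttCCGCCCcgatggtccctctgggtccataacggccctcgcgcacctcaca
Vps18: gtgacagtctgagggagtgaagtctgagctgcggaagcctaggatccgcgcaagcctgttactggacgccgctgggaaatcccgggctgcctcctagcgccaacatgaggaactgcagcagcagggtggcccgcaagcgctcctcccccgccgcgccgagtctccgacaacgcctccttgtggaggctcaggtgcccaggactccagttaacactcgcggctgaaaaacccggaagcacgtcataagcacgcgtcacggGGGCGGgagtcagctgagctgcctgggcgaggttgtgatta
Snx3 held none of the 4 motifs in this window, Snx4 held 4 GC boxes, Snx1 held 3 GC boxes and 1 CCAAT box, and Vps18 held 1 GC box past its start. The start site used for Snx1 lies 1701 bases inside the 5' end that the count tables give for the gene. Of the 75 members, 53 had a promoter entry, and 36 of these held a GC box (67.9%), beside 35.7% of all 32851 promoters in the table. The CCAAT box was held by 15 (28.3% beside 37.4%), the E-box by 7 (13.2% beside 7.15%) and the TATA box by 3 (5.66% beside 13.6%). The 2 sets are unlike, since each member has 1 entry, the one nearest to its start in the count tables. The 32851 promoters were neither reduced to 1 per gene nor limited to expressed genes. The median GC content of the members' windows was 64% beside 52.7% over all promoters, and the GC box itself consists of G and C. Of the 13 called members, 10 had an entry and 9 of those held a GC box; a match describes the letters and is not a binding site.

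Snx15, a sorting nexin outside the named subfamilies, had the lowest log2 fold change of the tested members. Snx15 (ENSMUSG00000024787, chr19:6119399-6128304, minus strand), which carries a microtubule-interacting domain beside its PX domain, was at 4.31 to 38.8 CPM (median 28.6) in controls and at 0.487 to 7.74 CPM (median 4.27) in Ehmt2Mat embryos. Only control 6 lay within the range of the Ehmt2Mat embryos. It was 5.41-fold lower, with a log2 fold change of -2.43 (SE 0.49, adjusted p = 0.00293). Snx16, the most abundant nexin of the same set, was at 173 to 404 CPM (median 287) in controls and 131 to 364 CPM (median 257) in Ehmt2Mat embryos, and its log2 fold change of -0.07 (SE 0.20) did not pass the test. The exons of Snx16 and Chmp4c overlap on opposite strands over 330 bases, and the counting did not use strand. Snx10, a PX-only nexin of endosomes, was at -0.78 (SE 0.26, adjusted p = 0.0623), just outside the threshold. DESeq2 called Snx10, as did edgeR under a minimum of 10 counts per embryo.

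The SNX-BAR nexins bend membrane into tubules, and 7 of the 9 were tested, of which Snx1 and Snx8 were called higher and Snx4 lower. Snx1 (ENSMUSG00000032382, chr9:66088133-66126587, minus strand), which pairs with Snx5 or Snx6 on retrieval tubules, was at 80.4 to 197 CPM (median 95.0) in controls and at 186 to 363 CPM (median 237) in Ehmt2Mat embryos. Of the 10 Ehmt2Mat embryos 9 lay above every control, and only control 6 reached into their range. It was 2.19-fold higher, with a log2 fold change of 1.13 (SE 0.19, adjusted p = 0.000922). Its paralog Snx2 went the other way without passing the test, at -0.30 (SE 0.20, adjusted p = 0.407), from a median of 120 to 108 CPM.

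Snx8, an endosomal nexin, was at 24.2 to 101 CPM (median 58.5) in controls and 53.7 to 161 CPM (median 99.4) in Ehmt2Mat embryos. It differed by 0.94 on the log2 scale (SE 0.27, adjusted p = 0.0285). Snx4, which recycles cargo and takes part in autophagy, was at 102 to 281 CPM (median 158) and at 77.7 to 158 CPM (median 102), or -0.77 on the log2 scale (SE 0.21, adjusted p = 0.0214). The groups overlapped for both, with 4 controls above every Ehmt2Mat embryo for Snx4 and 5 Ehmt2Mat embryos above every control for Snx8. The call of Snx8 was lost without control 8 or Ehmt2Mat embryo 1 or 4, with adjusted p up to 0.0548. Snx5 was at 338 to 999 CPM (median 723) and 288 to 1030 CPM (median 417), with a log2 fold change of -0.59 (SE 0.22, adjusted p = 0.0851). It passed the test without control 3 or without Ehmt2Mat embryo 10, the embryo with 1030 CPM, where the adjusted p was as low as 0.00777.

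None of the 4 cargo-selective retromer subunits passed the edgeR test, while DESeq2 called Vps29 (adjusted p = 0.00861) and Vps35 (adjusted p = 0.0354), as did edgeR under a minimum of 10 counts per embryo (0.0216 and 0.0376). Vps35, the scaffold of the trimer, was at 143 to 375 CPM (median 258) in controls and 99.6 to 267 CPM (median 171) in Ehmt2Mat embryos, and its log2 fold change was -0.57 (SE 0.20, adjusted p = 0.0723). Vps29, a small subunit that binds regulators of retromer, was at 4.88 to 36.7 CPM (median 14.8) and at 3.92 to 14.01 CPM (median 7.09), a log2 fold change of -1.10 (SE 0.38, adjusted p = 0.0643). For Vps29 all 10 Ehmt2Mat embryos lay below the control median, and for Vps35 9 of 10 did. The 2 forms of the arrestin-like subunit differed in level, with control medians of 51.3 CPM per kb for Vps26a and 7.72 CPM per kb for Vps26b. Their log2 fold changes were 0.30 (SE 0.20) and -0.39 (SE 0.24), and neither passed the test. Vps35 passed without control 1 or Ehmt2Mat embryo 10, and Vps29 without control 5 or Ehmt2Mat embryo 6.

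The other nexin groups held no member called by edgeR, and DESeq2 called Snx33 among them (adjusted p = 0.0461). Snx27, whose PDZ domain links receptors to retromer, was at 76.2 to 228 CPM (median 199) in controls and 88.2 to 266 CPM (median 154) in Ehmt2Mat embryos, and Snx17, whose FERM domain binds NPxY cargo, had a log2 fold change of -0.41 (SE 0.26, adjusted p = 0.362). Snx18, which acts in endocytic membrane remodelling, was above the control median in all 10 Ehmt2Mat embryos, at 7.31 to 82.3 CPM (median 18.4) in controls and 19.4 to 97.7 CPM (median 49.8), with a log2 fold change of 0.71 (SE 0.40, adjusted p = 0.301). Snx33 was near the floor, with a control median of 0 CPM, 1.97 CPM in control 10 and at most 0.154 CPM in the other controls, and at 0 to 7.27 CPM (median 1.71) in Ehmt2Mat embryos. Its fitted log2 fold change of 3.62 (SE 1.32, adjusted p = 0.0846) rests on these few reads and passed without control 10. Snx13 and Snx14, nexins with an RGS-homology domain, had log2 fold changes of -0.95 (SE 0.74) and 0.97 (SE 0.77).

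**Figure D3:**
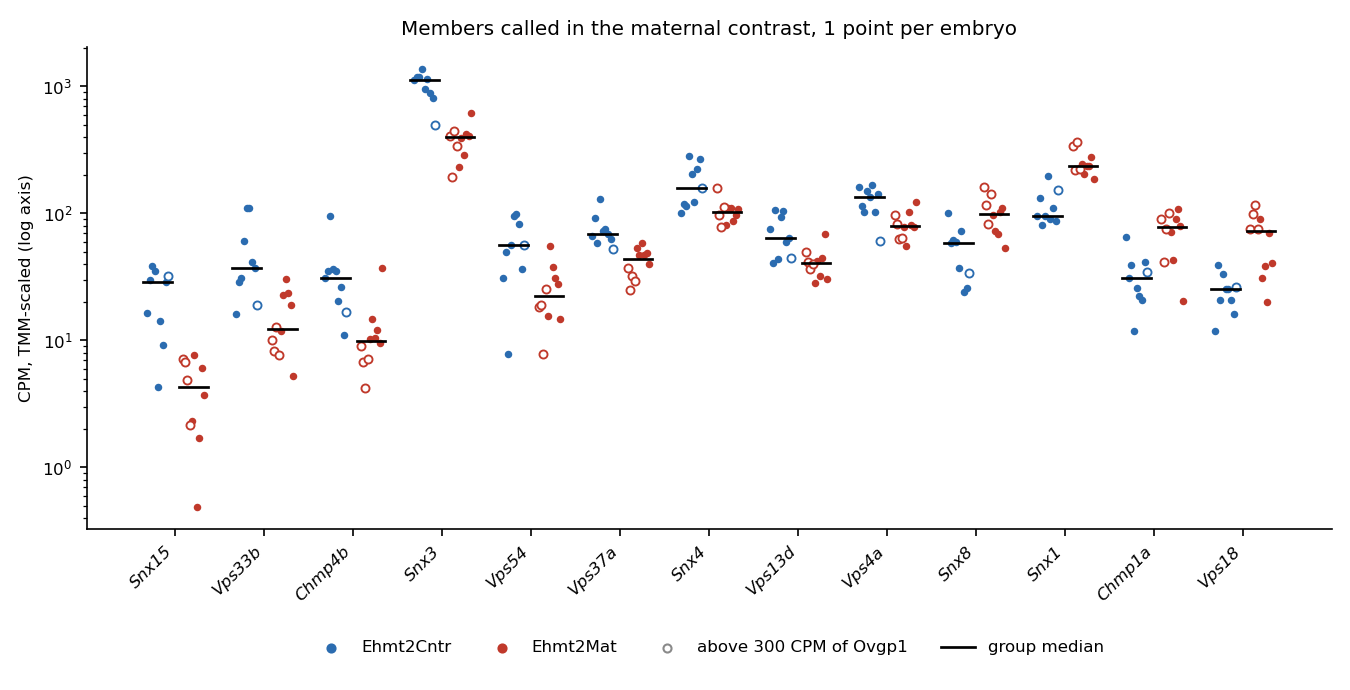
CPM of the 13 members called in the maternal comparison, on a log axis, in each of 9 Ehmt2Cntr (blue) and 10 Ehmt2Mat (red) embryos, with black bars for group medians and open symbols for the 5 embryos above 300 CPM of Ovgp1. The members run from Snx15, at -2.43 on the log2 scale, to Vps18, at 1.43, and the groups overlap in each.

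In the ESCRT pathway 1 ESCRT-I subunit, 2 ESCRT-III subunits and 1 ATPase were called. The 3 ESCRT-0 genes, which first bind ubiquitinated cargo, lay within 0.29 of 0 on the log2 scale and none passed the test: Stam2 had a control median of 183 CPM and Stam of 44.7 CPM, with log2 fold changes of -0.29 (SE 0.18) and -0.18 (SE 0.31). In ESCRT-I, which hands cargo on, Vps37a was at 52.5 to 130 CPM (median 69.0) in controls and at 25.0 to 58.5 CPM (median 43.4) in Ehmt2Mat embryos. Of the 10 Ehmt2Mat embryos 8 lay below every control. The log2 fold change of Vps37a was -0.85 (SE 0.21, adjusted p = 0.0133), beside -0.20 (SE 0.23) for Vps37b and 0.88 (SE 0.73) for Vps37c, its paralogs. Vps37b shares 32.9% of its exon bases with Hip1r on the opposite strand, which the counting did not separate. Tsg101, the ubiquitin-binding subunit, was at -0.76 (SE 0.26, adjusted p = 0.0636), and 28.2% of its 50-base windows also occur in the pseudogene Tsg101-ps. DESeq2 called Tsg101, as did edgeR under a minimum of 10 counts per embryo. Vps25, in ESCRT-II, shares 67.2% of its exon bases with Ramp2, so its counts are uncertain, and neither it nor Vps36 passed the test.

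ESCRT-III forms the filaments that cut the vesicle neck. Chmp4b, its main filament subunit, was at 10.9 to 95.0 CPM (median 30.8) in controls and at 4.24 to 37.3 CPM (median 9.90) in Ehmt2Mat embryos. Of the 10 Ehmt2Mat embryos 7 lay below every control, while embryo 10 lay above all controls but control 3. Chmp4b had a log2 fold change of -1.49 (SE 0.41, adjusted p = 0.022), and without control 3 the adjusted p was 0.0667. Its paralog Chmp4c had a control median of 84.7 CPM and a log2 fold change of -0.24 (SE 0.20, adjusted p = 0.526).

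Chmp1a, a late-acting subunit that recruits VPS4, went the other way, at 11.8 to 65.6 CPM (median 31.2) in controls and at 20.4 to 109 CPM (median 77.5) in Ehmt2Mat embryos. Of these embryos 7 lay above every control, and embryo 10 was below all controls but control 5. The fitted difference was 1.15 on the log2 scale (SE 0.31, adjusted p = 0.0208), and 10.5% of its windows also occur in Gm8515. The remaining 7 ESCRT-III members did not pass the test, among them Chmp2a at 0.28 (SE 0.22) and its paralog Chmp2b at 0.67 (SE 1.08), a gene of low level with control and Ehmt2Mat medians of 3.54 and 5.74 CPM.

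Both VPS4 ATPases had log2 fold changes of similar size. Vps4a was at 60.7 to 166 CPM (median 136) in controls and at 55.3 to 123 CPM (median 79.2) in Ehmt2Mat embryos, which gave a log2 fold change of -0.61 (SE 0.20, adjusted p = 0.0489). Vps4b was at 101 to 329 CPM (median 163) and at 70.0 to 196 CPM (median 109), a log2 fold change of -0.62 (SE 0.21, adjusted p = 0.068). Their adjusted p lay close to the threshold, on either side of it. DESeq2 called Vps4b as well (adjusted p = 0.0418), as did edgeR under a minimum of 10 counts per embryo (adjusted p = 0.0416). Vps4a stayed called only without control 3, control 10 or Ehmt2Mat embryo 7 or 10, and lost its call without each of the other 15, with adjusted p up to 0.0921.

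**Figure D4:**
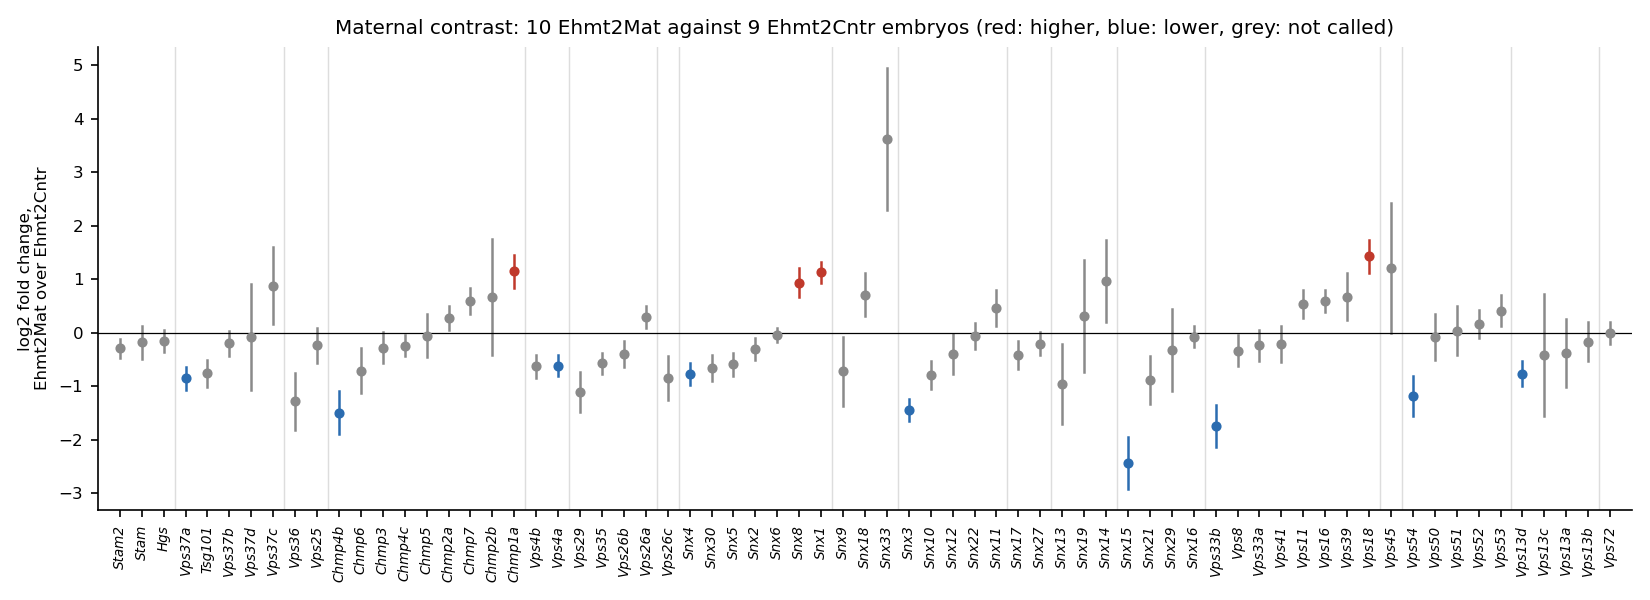
Log2 fold change (points) with its SE (lines) of the 69 tested members in Ehmt2Mat over Ehmt2Cntr embryos, ordered by complex with grey lines between complexes; 4 members in red passed the test as higher and 9 in blue as lower. The wide bar of Snx33, at 3.62, belongs to a gene near the floor.

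Among the tethering complexes, edgeR called 1 of the 8 genes listed with HOPS and CORVET higher and 1 lower. DESeq2 also called Vps16 of this set, as did edgeR without control 7. Vps18 (ENSMUSG00000034216, chr2:119288740-119298453, plus strand), a core subunit of both complexes, was at 11.9 to 39.1 CPM (median 25.5) in controls and at 20.2 to 116 CPM (median 72.4) in Ehmt2Mat embryos. Of the Ehmt2Mat embryos 7 lay above every control, and embryo 8 lay below the control median. It was 2.70-fold higher, with a log2 fold change of 1.43 (SE 0.31, adjusted p = 0.00501), and without the 5 embryos high in Ovgp1 the value was 1.00 (SE 0.36, adjusted p = 0.126). Vps33b, a Sec1/Munc18 protein that forms a complex of its own with Vipas39, was at 16.2 to 111 CPM (median 37.3) in controls and at 5.25 to 30.2 CPM (median 12.4) in Ehmt2Mat embryos. It was 3.34-fold lower, with 6 Ehmt2Mat embryos below every control and a log2 fold change of -1.74 (SE 0.40, adjusted p = 0.0073). The difference was smaller with matched zygotic genotype, where +/- controls averaged 22.2 CPM ± 7.93 (SD, n = 3) and +/- Ehmt2Mat embryos 14.6 CPM ± 8.45 (SD, n = 5), while +/+ controls averaged 65.0 CPM ± 37.1 (SD, n = 6). Its paralog Vps33a, a HOPS and CORVET subunit, had a log2 fold change of -0.24 (SE 0.28), and Vps41, a HOPS subunit, of -0.21 (SE 0.33).

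In GARP, which tethers retrograde carriers at the Golgi, Vps54 was at 7.83 to 98.9 CPM (median 56.8) in controls and at 7.88 to 55.3 CPM (median 22.4) in Ehmt2Mat embryos. All 10 Ehmt2Mat embryos lay below the control median, and control 3, at 7.83 CPM, lay below each of them. Vps54 had a log2 fold change of -1.18 (SE 0.38, adjusted p = 0.0491), a call kept without controls 1, 3 or 9 or Ehmt2Mat embryos 6 or 7 and lost without each of the other 14. The +/- controls had a mean of 31.9 CPM ± 24.5 (SD, n = 3), the +/- Ehmt2Mat embryos one of 25.6 CPM ± 18.6 (SD, n = 5) and the +/+ controls one of 70.0 CPM ± 25.95 (SD, n = 6). Vps13d, a lipid transfer protein with a role at mitochondria, was at 41.0 to 107 CPM (median 64.1) and at 28.4 to 69.0 CPM (median 40.6). Its log2 fold change was -0.77 (SE 0.23, adjusted p = 0.0394), a call kept without controls 2, 5, 8, 9 or 10 or Ehmt2Mat embryos 1 or 9 and lost without each of the other 12. Vps72, a chromatin protein that carries the same prefix and has no endosomal role, was at -0.01 (SE 0.21).

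Of 51 further genes of endosomal sorting, listed with earlier results known, 1 was called higher and 4 lower, a share of 9.80% that lies near the 9.35% of all tested genes. Commd5, of the Commander complex that recycles integrins, had a median of 101 CPM in controls and 220 CPM in Ehmt2Mat embryos, which gave 1.11 on the log2 scale (SE 0.26, adjusted p = 0.00826). Of 11 endosomal Rab GTPases 3 were called, all lower. Rab5a, a master of early endosomes, was at 329 to 530 CPM (median 381) in controls and at 143 to 335 CPM (median 190) in Ehmt2Mat embryos, and 9 Ehmt2Mat embryos lay below every control. Its log2 fold change was -0.92 (SE 0.18, adjusted p = 0.00202), that of its paralog Rab5c -1.44 (SE 0.26, adjusted p = 0.00152), and that of Rab11b, of recycling endosomes, -0.98 (SE 0.27, adjusted p = 0.022). Pdcd6ip, the ESCRT partner also called ALIX, had a log2 fold change of -0.76 (SE 0.22, adjusted p = 0.0304), and its call was lost without control 1 or 7 or Ehmt2Mat embryo 2, 4 or 9. Without the 5 embryos high in Ovgp1, Rab5a and Rab5c passed the test. No gene of the WASH complex (5 genes) or of PI3P synthesis (5 genes) passed.

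The zygotic genotype, which the choice of genes did not use, was compared within each maternal group. Among Ehmt2Mat embryos 0 of 69 tested members differed between 5 -/- and 5 +/- embryos in edgeR, beside 0% of 12195 genes, and among controls 0 of 70 differed between 3 +/- and 6 +/+ embryos, beside 0% of 12646 genes. With DESeq2 0 members and 15 genes passed in the former, and 1 member (Vps8) and 107 genes in the latter. An unadjusted p under 0.05 was found for 1 member (Snx9) in the former, beside 270 genes in all (2.21%), and for 4 (Snx5, Snx30, Vps8 and Vps33b) in the latter, beside 572 genes (4.52%), so that the members lay near the share of all genes. The log2 fold change was below 0 for 34 members and above 0 for 35 in the former, with a median of 0.01. In controls it was below 0 for 49 and above 0 for 21, with a median of -0.31 beside -0.03 over all tested genes, of which 51.7% were below 0.

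The SE of these differences had a median of 0.38 and 0.46 on the log2 scale, larger than the 0.29 of the maternal comparison. Large differences also went uncalled in edgeR. Members that differed by 1 or more on this scale numbered 5 among Ehmt2Mat embryos and 8 among controls. Snx3 had a log2 fold change of -0.30 (SE 0.28) between -/- and +/- Ehmt2Mat embryos and of -0.17 (SE 0.30) between +/- and +/+ controls, and Snx1 of 0.13 (SE 0.23) and -0.09 (SE 0.35). The ranges of the zygotic groups were separate for Snx9 among Ehmt2Mat embryos, beside 0.558% of all tested genes. Snx9, an endocytic nexin of low level, was at 4.50, 5.13, 5.84, 6.00 and 7.97 CPM in -/- embryos and at 0.242, 0.328, 2.01, 2.29 and 2.31 CPM in +/- embryos. Among controls the ranges were separate for 5 members (Snx2, Snx5, Snx30, Vps8 and Vps51), beside 2.7% of all tested genes.

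Vps8, the CORVET subunit that binds Rab5, was at 15.1, 24.5 and 31.6 CPM in the +/- controls and at 42.1 to 86.5 CPM in the 6 +/+ controls. Its log2 fold change was -1.25 (SE 0.41), with an edgeR adjusted p of 1.00 and a DESeq2 adjusted p of 0.0417. Control 10, which was high in Ovgp1, was 1 of the 3 +/- controls. Vps33b was at 16.2, 19.2 and 31.2 CPM in the +/- and 28.9 to 111 CPM in the +/+ controls, so that the zygotic groups of controls overlapped in this gene.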

How the data were processed

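Libraries from 19 single 8C embryos (9 Ehmt2Cntr, 10 Ehmt2Mat) were analysed, and 1 further labelled control, number 4, was not analysed here. The authors deposited raw counts per Ensembl gene, made per the file headers with featureCounts 1.5.0 on exons of Ensembl release 82 (GRCm38); a read needed 10 overlapping bases and counted for each gene it touched, with multi-mapping reads kept and without strand. The study's methods give TopHat2 as the aligner, which the labels' processing notes also name beside featureCounts and DESeq2, and the cDNA amplification has a 3' bias. Reads of overlapping genes and near-identical copies are therefore counted more than once.

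Symbols came from GENCODE M21 (34599 of 34937 genes matched), and Vps28 and Chmp1b were not analysed here. Counts were fitted in edgeR 4.0.16 (R 4.3.3) with filterByExpr, TMM and the quasi-likelihood test, separately for the maternal comparison and both zygotic comparisons, with Benjamini-Hochberg adjustment over all genes tested and a threshold of 0.05. The fit was tested on simulated data. SE were derived from the quasi-likelihood F. Genes named were the called members, the 5 most abundant in controls, in classes of 3 or more the most abundant and the most changed member, 7 paralog pairs, Vps35, Vps29, called pathway genes and Ehmt2; other genes were named after their values were seen. Members and lists were chosen with earlier results of these data known. Alternatives were DESeq2 1.42.0, scaling by RLE or the upper quartile, omitting the filter, a minimum of 10 counts per embryo, a replicate block, zygotic +/- embryos only and each embryo left out; thinned counts and both treatments of Ovgp1 (its limit of 300 CPM and log2(CPM + 1) as a covariate) were added after seeing the data. Totals of 8231646 to 30602434 counts per embryo limit the precision for low genes. Labels pair no embryos.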

Additional observations from a re-analysis of the deposited data

Results flagged for a closer look

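Within the groups of 9 or 10 embryos, 10 of 86 sets of values held an embryo set apart. Each set held the values of a named gene, and the gap to the nearest neighbour was large for the range of the group. The limit marks about 1 in 20 groups by chance if values are normally distributed, which was not tested for CPM. All 10 marked embryos were the highest of their group, so the count cannot be read as an excess over chance. In Ehmt2Mat embryo 10, Chmp4b was at 37.3 CPM (next 14.7), Snx5 at 1030 CPM (next 559) and Vps4b at 196 CPM (next 132). In control 9, Vps4b was at 329 CPM (next 187) and Vps26a at 265.7 CPM (next 200.7). In control 3, Chmp4b was at 95.0 CPM (next 36.8), and in control 10 Snx33 was at 1.97 CPM (next 0.154). In Ehmt2Mat embryos 1, 3 and 9 respectively, Snx4 was at 158 CPM (next 113), Chmp2b at 26.5 CPM (next 9.82) and Vps13d at 69.0 CPM (next 49.4).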

How the results depend on the processing

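All 13 called members kept their direction under every alternative. For all genes and for the members in the maternal comparison, called counts were 1099 and 13, against 2038 and 20 with DESeq2 (14 members lower), 1375 (19.2% of 7154 genes tested) and 20 (16 lower, of 55 tested) under a minimum of 10 counts per embryo, 1 and 0 (0 higher, 0 lower; 7 members at an unadjusted p under 0.05) with zygotic +/- embryos only (3 against 5 embryos), 465 and 3 (1 higher, 2 lower) without the 5 embryos above 300 CPM of Ovgp1, and 8 and 0 (0 higher, 0 lower) with Ovgp1 as a covariate. Called pathway genes numbered 5, and 8, 8, 0, 2 and 0 under the same 5 alternatives. DESeq2 called 15 genes for the zygotic genotype in Ehmt2Mat embryos and 107 genes, 1 of them a member, in controls. Without control 10, 1 gene and no member passed there in edgeR. Without 1 embryo at a time, 9 to 14 members were called (lowest without Ehmt2Mat embryo 4), with 884 to 1262 genes in all; for the zygotic genotype in controls, 0 to 1. No filter left 10 of 74 tested members called, beside 5.67% of all genes tested. Upper-quartile normalization left 12 (9.36% of all genes), RLE 13 (9.44%) and thinned counts 13 (10.6%). The share of all genes with an unadjusted p under 0.05 was not computed for any alternative of the maternal comparison. Apart from the constructions named, the cause of these shifts was not tested.

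Embryo numbers only name embryos: deviations of the 9 pairs with the same number correlated between -0.156 and 0.0856, and 0 controls correlated best with their own number. With the number as a replicate block, 693 genes and 7 members (4 lower) were called. For members with low counts, the depth limited what could be detected.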
